A study of Oryctolagus cuniculus with 8 samples.

Results

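The genes described here are 10 genes known to be induced by glucocorticoids in other cells and tissues, with roles in stress and metabolism: TSC22D3, KLF9, TXNIP, ANGPTL4, MAOA, DDIT4, GADD45G, MAP3K6, ERRFI1 and RASD1. They were chosen by name, 10 genes of the 10481 with a symbol on the array, through every non-control probe that reports one of them, which gave 18 probes of 43603. RNA came from the forebrain of New Zealand rabbits born preterm by Caesarean delivery on day 29 (term is day 32) and sampled on postnatal day 14. Pups of the dexamethasone group (n = 4) had intramuscular dexamethasone, a synthetic glucocorticoid, at 0.25 mg/kg 2 times a day for up to 5 days, and pups of the saline group (n = 4) had saline vehicle. Preterm birth, formula feeding and incubator care were shared by both groups. The days between the last dose and sampling are not given in the sources used here. The design text calls the 4 samples of each group biological replicates.

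Glucocorticoids act through the glucocorticoid receptor NR3C1, a transcription factor that moves to the nucleus once it has bound the hormone and raises or lowers transcription at its target genes. In human and mouse cells the 10 genes are among the targets that rise within hours, and their products curb inflammatory and growth factor signalling, hold back mTOR activity and shift cells from using glucose to sparing it. In the brain such targets serve as readouts of how far a steroid dose has reached neurons and glia.

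None of the 10 genes differed between dexamethasone and saline at an adjusted p under 0.05. The largest estimates were 1.56-fold higher with dexamethasone at 1 of the 2 probes of TXNIP, 1.40-fold higher for DDIT4 and 0.814-fold (lower) for GADD45G. Of the 17 member probes tested, only that of TSC22D3 had all 4 dexamethasone samples above all 4 saline samples, by 1.14-fold on average, a pattern shown by 6.55% of all probes tested. Its groups overlapped with quantile normalisation and with the deposited table. The 95% intervals reached up to 2.44-fold for TXNIP and 1.99-fold for DDIT4, so a missed threshold does not show that the groups were alike. These intervals do not cover the choice of background correction or scaling. With the scanner's processed signals the log2 difference of DDIT4 was 1.15, above its interval's upper end of 0.99. A lower level in such bulk tissue could come from fewer cells of a type or from less RNA per cell, which cannot be told apart here.

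Each gene is read through short DNA probes of 60 bases on the array, and what a probe reports depends on where it lies in the transcript. The probe sequences are given because 3 of the genes are read by several probes that overlap or neighbour each other, and their results are set against each other further on. Coordinates are those of the array's annotation on oryCun2, and sequences are written 5′ to 3′ as the scanner files give them. The TSC22D3 probe aligns within chrX:56333889-56335036 on the minus strand, a span of 1148 bases for a probe of 60, so it crosses a splice junction. The DDIT4 probe lies at chr18:15150306-15150365 on the minus strand.
TSC22D3 A_04_P099747: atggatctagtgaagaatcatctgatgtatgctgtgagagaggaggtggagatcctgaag
DDIT4 A_04_P083227: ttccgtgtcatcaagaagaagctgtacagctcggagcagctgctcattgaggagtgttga

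The 2 TXNIP probes start 138 bases apart in the same transcript and do not overlap in it. They align within chr13:42738255-42738428 and chr13:42738507-42738691 on the plus strand, in spans of 174 and 185 bases, so each also crosses a splice junction.
TXNIP A_04_P033078: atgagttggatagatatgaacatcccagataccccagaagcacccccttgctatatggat
TXNIP A_04_P102712: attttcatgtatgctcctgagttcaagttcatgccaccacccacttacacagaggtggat

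The 5 ERRFI1 probes all lie between chr13:141854465 and chr13:141854530 on the plus strand and are steps of 1 or 2 bases along 1 stretch. The capitals mark the 54 bases that all 5 share, so that the probes are nearly the same measurement repeated on 5 spots. The first and the last of them are shown.
ERRFI1 A_04_P041281: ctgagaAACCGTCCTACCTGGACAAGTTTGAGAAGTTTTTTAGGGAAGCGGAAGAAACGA
ERRFI1 A_04_P041277: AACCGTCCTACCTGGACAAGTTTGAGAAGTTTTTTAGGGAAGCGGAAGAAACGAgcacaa

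The 4 MAOA probes step along the transcript by 40 bases within chrX:29153148-29153519 on the plus strand. Each shares 20 bases with its neighbour, and the capitals mark the bases shared with the end of the probe before it.
MAOA A_04_P097930: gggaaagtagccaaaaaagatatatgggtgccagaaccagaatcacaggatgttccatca
MAOA A_04_P097929: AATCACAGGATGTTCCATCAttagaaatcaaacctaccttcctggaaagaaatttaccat
MAOA A_04_P097928: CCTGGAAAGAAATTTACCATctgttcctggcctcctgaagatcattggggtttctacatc
MAOA A_04_P097927: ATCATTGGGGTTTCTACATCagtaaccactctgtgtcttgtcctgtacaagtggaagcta

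The other 5 genes have 1 probe each. KLF9 is read within chr1:56668180-56690696 and GADD45G within chr1:78240849-78240997, both on the minus strand, and MAP3K6 at chr13:138081041-138081100 on the plus strand. The probes of RASD1 and ANGPTL4 carry no position in the array's annotation. Exon and UTR annotations of this build were not used here.

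RNA was hybridised to 4 Agilent rabbit arrays with 2 samples on each, the odd-numbered sample labelled with Cy3 and the even-numbered one with Cy5. Both samples of an array belonged to the same group. Slide 2 carried the dexamethasone arrays and slide 1 the saline arrays. The dexamethasone arrays were all scanned on 1 day and the saline arrays all on another. For every member, effects of the slide, of the scan day and of treatment cannot be told apart. All 10 spike-in control probes, which read RNA added during labelling, were lower on the dexamethasone arrays, by log2 differences of -0.56 to -0.30, and the part of this offset in the members' values was not tested. Of 11 neuronal markers 8 were tested, and STMN2, SYT1 and MAP2 were well above background in all 8 samples. The astrocyte marker GFAP was well above background in 2 dexamethasone samples and 1 saline sample, and MOBP, a marker of myelinating oligodendrocytes, in 1 of each. None of the cell type markers tested passed the adjusted threshold. The 2 tested markers of blood vessels parted, with ABCB1, an efflux pump, at 0.73 (SE 0.14) without overlap between the groups and CLDN5, a tight junction protein, at -0.02 (SE 0.15). Of the other markers, MAL of oligodendrocytes (0.51) was higher with dexamethasone without overlap. S100A9 of blood (-0.93), KL of choroid plexus (-0.49) and SYT1 (-0.32) were lower without overlap. Over all probes tested, 12.4% had no overlap in either direction. The other probes of SYT1 gave -0.28 to -0.005. Of the 3 tested oligodendrocyte markers 2 lay above 0 and 1 below, with a median of 0.03. The 8 neuronal markers had 6 above 0 and 2 below (median 0.14). Among the 4 tested blood markers 3 lay above 0 and 1 below (median 0.30). The 2 tested markers of choroid plexus and ependyma had 1 above 0 (TTR at 0.03) and 1 below. The part of these markers in the members' values was not tested.

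Before normalisation the members were read closer to background in the saline samples. A member probe was well above background, by the scanner software's own test, in 67 of 72 readings with dexamethasone and in 48 of 72 with saline. In Cy3, 16 and 15 of the 18 member probes passed in dexamethasone 1 and 3, against 8 each in saline 1 and 3. In Cy5, all 18 passed in dexamethasone 2 and 4, against 14 in saline 2 and 18 in saline 4. The gap between groups lay mainly in the Cy3 saline samples.

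This gap was not confined to these genes. The share of all 43603 probes well above background was 48.8% and 47.7% in dexamethasone 1 and 3, against 42.5% and 39.1% in saline 1 and 3. It was 64.3% and 62.9% in dexamethasone 2 and 4, against 52.9% and 59.7% in saline 2 and 4. Of the 17 member probes tested, 15 had a ratio of signal to local background higher in both Cy3 dexamethasone samples than in both Cy3 saline samples, as had 75.3% of all 20707 probes tested. In Cy5 the counts were 8 of 17 members and 52.1% of all probes tested. Signals over background therefore differed between the groups across the whole array, and values of single genes before normalisation cannot be set against each other.

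**Figure D1:**
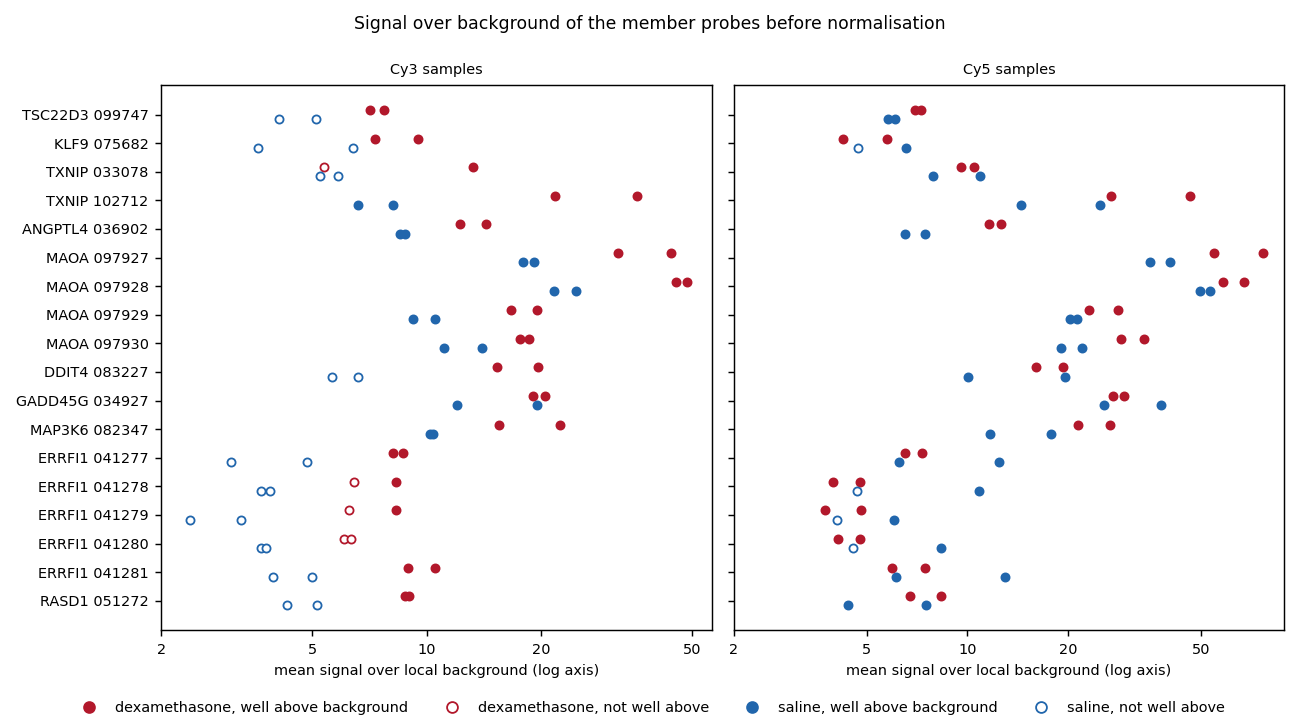
Each point is the mean signal of a member probe in 1 sample divided by its local background, on a log axis, for Cy3 samples on the left and Cy5 samples on the right. Dexamethasone samples (red) are drawn above saline samples (blue), and open points are not well above background. In Cy3 the red points lie to the right of the blue points for 15 of the 17 tested probes, and most open points belong to Cy3 saline samples.

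Normalised values were compared with limma over 20707 probes, those that cleared the scanner's background test in 4 or more of the 8 samples and had 3 or more values in each group. All 10 genes and 17 of their 18 probes were tested, and the ERRFI1 probe A_04_P041280, well above background in 3 of 8 samples, was not. Values are log2 normalised intensities, and differences are dexamethasone minus saline on the log2 scale. Brightness cannot be compared between probes, so levels are set against each other only within a probe.

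TSC22D3 encodes the glucocorticoid-induced leucine zipper, which blocks inflammatory transcription factors in immune cells, and KLF9 encodes a zinc finger transcription factor that responds to glucocorticoids and thyroid hormone in neurons. TSC22D3 had log2 intensities of 8.57, 8.47, 8.64 and 8.50 in dexamethasone 1 to 4, against 8.35, 8.46, 8.28 and 8.32 in saline 1 to 4. The lowest dexamethasone sample lay just above the highest saline sample, saline 2, and the probe was well above background in 4 dexamethasone samples and in saline 2 and 4. The group means were 8.54 ± 0.08 with dexamethasone and 8.35 ± 0.08 with saline (SD, n = 4 each), and the difference was 0.19 (SE 0.10, adjusted p = 0.430, limma with the Benjamini-Hochberg method). No member had all its dexamethasone samples below the saline samples, as 5.86% of all probes tested did.

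The TSC22D3 difference was 0.29 between the Cy3 samples and 0.09 between the Cy5 samples. With the scanner's processed signals it was 0.72, and it stayed above 0 in all 26 alternatives that gave a value, from 0.14 upwards. The adjusted p over those alternatives ran from 0.075 to 0.830, and none passed the threshold.

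KLF9 was near background, well above it in 4 dexamethasone samples and 1 saline sample. Its log2 intensities were 8.53, 8.28, 8.66 and 8.11 in dexamethasone 1 to 4, against 8.42, 8.28, 8.33 and 8.38 in saline 1 to 4. The dexamethasone samples spread to both sides of the saline samples, with both Cy3 samples above all of them and dexamethasone 4 below all of them. The difference was 0.04 (SE 0.13, adjusted p = 0.892, limma), with a 95% interval of 0.842-fold to 1.26-fold. With the processed signals it was 0.24, with a wider SE of 0.42.

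Among the genes of metabolism, TXNIP encodes an inhibitor of thioredoxin that also limits glucose uptake, ANGPTL4 a secreted inhibitor of lipoprotein lipase, and MAOA the mitochondrial enzyme that oxidises serotonin and noradrenaline. At the downstream TXNIP probe A_04_P102712 the log2 intensities were 10.69, 10.08, 9.89 and 9.51 in dexamethasone 1 to 4, against 8.98, 9.34, 9.53 and 9.76 in saline 1 to 4. Both samples of the first dexamethasone array and dexamethasone 3 lay above every saline sample, while dexamethasone 4 lay below saline 3 and 4. The means were 10.04 ± 0.49 with dexamethasone and 9.41 ± 0.33 with saline (SD, n = 4 each). The difference was 0.64 (SE 0.28, adjusted p = 0.392, limma), the highest among the members and the one with the smallest p, with a 95% interval of 0.993-fold to 2.44-fold. It was 1.03 between the Cy3 samples and 0.24 between the Cy5 samples. The estimate was 0.29 without the array of dexamethasone 1 and 2, 0.98 without that of dexamethasone 3 and 4, 0.40 without that of saline 1 and 2, 1.25 with the processed signals and 1.20 with the deposited table, so it moved by more than 1.5 times.

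The upstream TXNIP probe A_04_P033078 read 8.14, 8.84, 8.96 and 8.83 in dexamethasone 1 to 4, against 8.44, 8.69, 8.93 and 8.99 in saline 1 to 4. Dexamethasone 1, the highest sample at the downstream probe, was here the lowest of all 8 and not well above background. The difference was -0.07 (SE 0.21, adjusted p = 0.894, limma), with a 95% interval of 0.683-fold to 1.33-fold. The 2 probes of this transcript therefore did not order the samples alike. The upstream probe was well above background in 3 dexamethasone and 2 saline samples, and the downstream probe in 4 and 4. Averaged over both probes, the TXNIP difference was 0.28 (SE 0.16, adjusted p = 0.429 over 11270 gene names, limma). For probes without a symbol, the array's own gene name was used in this averaging.

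ANGPTL4 was well above background in all 8 samples. Its log2 intensities were 8.91, 8.87, 9.10 and 8.97 in dexamethasone 1 to 4, against 8.98, 8.66, 8.87 and 8.82 in saline 1 to 4. Saline 1 lay within the range of the dexamethasone samples, and the other 3 saline samples lay below it. The difference was 0.13 (SE 0.10, adjusted p = 0.584, limma), with a 95% interval of 0.929-fold to 1.29-fold.

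The 4 MAOA probes were well above background in all 8 samples. At the most downstream, A_04_P097927, the log2 intensities were 10.66, 10.68, 10.26 and 10.34 in dexamethasone 1 to 4, against 10.07, 10.38, 10.19 and 10.24 in saline 1 to 4. Only the first dexamethasone array stood apart, and saline 2 lay above dexamethasone 3 and 4. The difference was 0.27 (SE 0.13, adjusted p = 0.418, limma). It was 0.14 (SE 0.10) at A_04_P097930, -0.10 (SE 0.10) at A_04_P097928 and -0.12 (SE 0.11) at A_04_P097929. The neighbours A_04_P097927 and A_04_P097928, which share 20 bases, thus lay on opposite sides of 0. The value of saline 2 at A_04_P097928 was left out as an outlier spot, so that difference rests on 3 saline samples. Averaged over its probes, MAOA differed by 0.09 (SE 0.09, adjusted p = 0.627, limma).

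**Figure D2:**
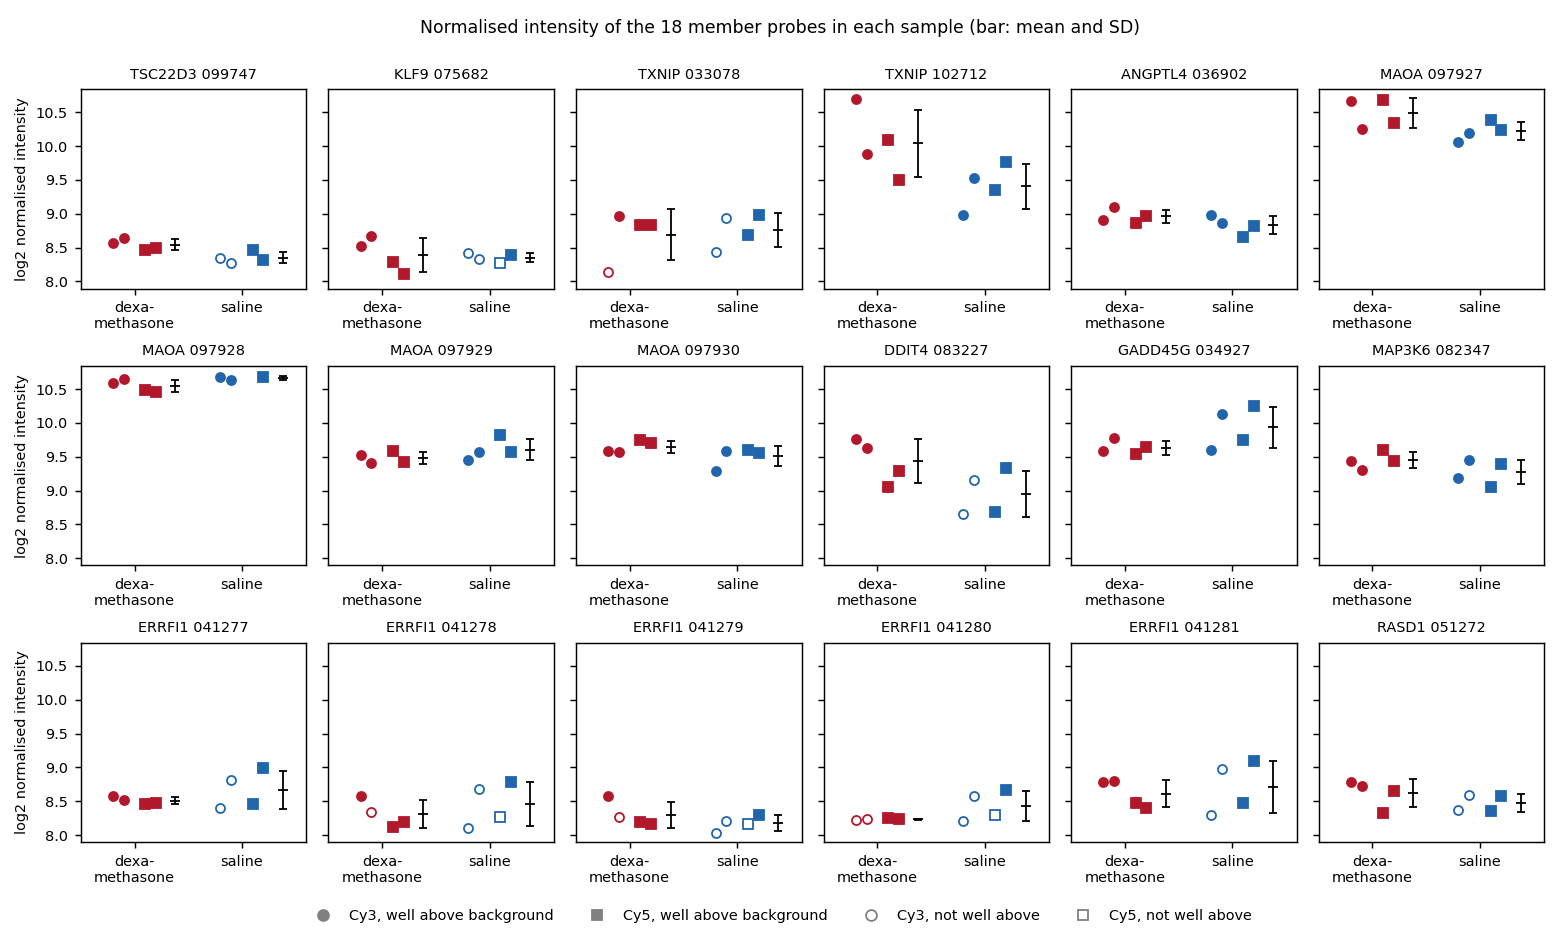
Each panel is a probe, titled by its gene and the last digits of its name, with log2 normalised intensity on the vertical axis. Points are samples, dexamethasone (red) left of saline (blue), circles for Cy3 and squares for Cy5, and open points are not well above background. Bars are the mean and SD. TSC22D3 is the only panel with no overlap, and in the panels of ERRFI1 and GADD45G saline 3 and 4 lie above saline 1 and 2.

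Among the genes of stress signalling, DDIT4 encodes an inhibitor of the mTOR complex mTORC1 that is induced by low oxygen and by steroids, GADD45G a sensor of growth arrest and DNA damage, and MAP3K6 a kinase of the stress-activated MAP kinase cascades. DDIT4 had log2 intensities of 9.77, 9.05, 9.63 and 9.29 in dexamethasone 1 to 4, against 8.65, 8.68, 9.15 and 9.33 in saline 1 to 4. Dexamethasone 1 and 3 lay above every saline sample, and saline 4 lay above dexamethasone 2 and 4. The means were 9.43 ± 0.32 with dexamethasone and 8.95 ± 0.34 with saline (SD, n = 4 each), and the difference was 0.48 (SE 0.22, adjusted p = 0.397, limma). The 95% interval ran from 0.982-fold to 1.99-fold.

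The DDIT4 difference was 0.80 between Cy3 samples and 0.17 between Cy5 samples, and saline 1 and 3, both Cy3, were not well above background. It stayed above 0 in all 26 alternatives that gave a value. It was 1.15 with the processed signals, 0.77 (adjusted p = 0.055, limma) without the array of saline 3 and 4 and 0.19 without the array of saline 1 and 2. The estimate thus moved by more than 1.5 times according to which saline array was used.

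GADD45G was the member with the lowest difference. Its log2 intensities were 9.59, 9.54, 9.78 and 9.64 in dexamethasone 1 to 4, against 9.60, 9.75, 10.13 and 10.25 in saline 1 to 4. The dexamethasone samples lay close together, and only saline 3 and 4 lay clearly above them. The difference was -0.30 (SE 0.16, adjusted p = 0.448, limma), with a 95% interval of 0.628-fold to 1.05-fold. It was below 0 in all 27 alternatives that gave a value, from -0.56 to -0.04.

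MAP3K6 was well above background in all 8 samples, with log2 intensities of 9.44, 9.60, 9.31 and 9.44 in dexamethasone 1 to 4, against 9.19, 9.06, 9.46 and 9.39 in saline 1 to 4. Saline 3 and 4 lay within the range of the dexamethasone samples and saline 1 and 2 below it. The difference was 0.17 (SE 0.13, adjusted p = 0.559, limma), with a 95% interval of 0.920-fold to 1.38-fold. With the processed signals it was 0.54 and with 75th percentile scaling 0.53, both above the interval's upper end of 0.47 in log2.

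ERRFI1 encodes a cytoplasmic inhibitor of the EGF receptor, and RASD1 a small GTPase first found as a dexamethasone-induced Ras protein in mouse cells. At the ERRFI1 probe A_04_P041277 the log2 intensities were 8.58, 8.46, 8.51 and 8.48 in dexamethasone 1 to 4, against 8.40, 8.47, 8.81 and 8.99 in saline 1 to 4. Saline 3 and 4 lay above every dexamethasone sample and saline 1 below every one. The 4 tested probes gave differences of -0.16 (SE 0.15), -0.15 (SE 0.19), -0.10 (SE 0.21) and 0.12 (SE 0.13), with adjusted p of 0.647 to 0.851 (limma). The fifth, A_04_P041280, gave -0.20 (SE 0.11) in the fit without the filter on dim probes. Averaged over the tested probes, the difference was -0.07 (SE 0.16).

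In saline 3 the place of ERRFI1 among the samples differed before and after normalisation. Its signal at A_04_P041277 was 3.06 times its local background, the lowest of the 8 samples, while its normalised log2 intensity of 8.81 was the highest but for saline 4. Saline 4, in the other channel of the same array, had 12.4 times its background, the highest of the 8. The loess step fits the 2 channels of an array to each other, and its part in the level of saline 3 was not tested. With the processed signals, 3 of the 4 tested ERRFI1 probes turned positive, with SEs of 0.56 to 0.62.

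RASD1 was well above background in 4 dexamethasone samples and in saline 2 and 4. Its log2 intensities were 8.79, 8.32, 8.72 and 8.65 in dexamethasone 1 to 4, against 8.37, 8.35, 8.59 and 8.58 in saline 1 to 4. Dexamethasone 2 was the lowest of the 8 and the other 3 dexamethasone samples the highest. The difference was 0.15 (SE 0.13, adjusted p = 0.620, limma), with a 95% interval of 0.899-fold to 1.37-fold. With the processed signals it was 0.64 and with 75th percentile scaling 0.52, both above the interval's upper end of 0.45 in log2.

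**Figure D3:**
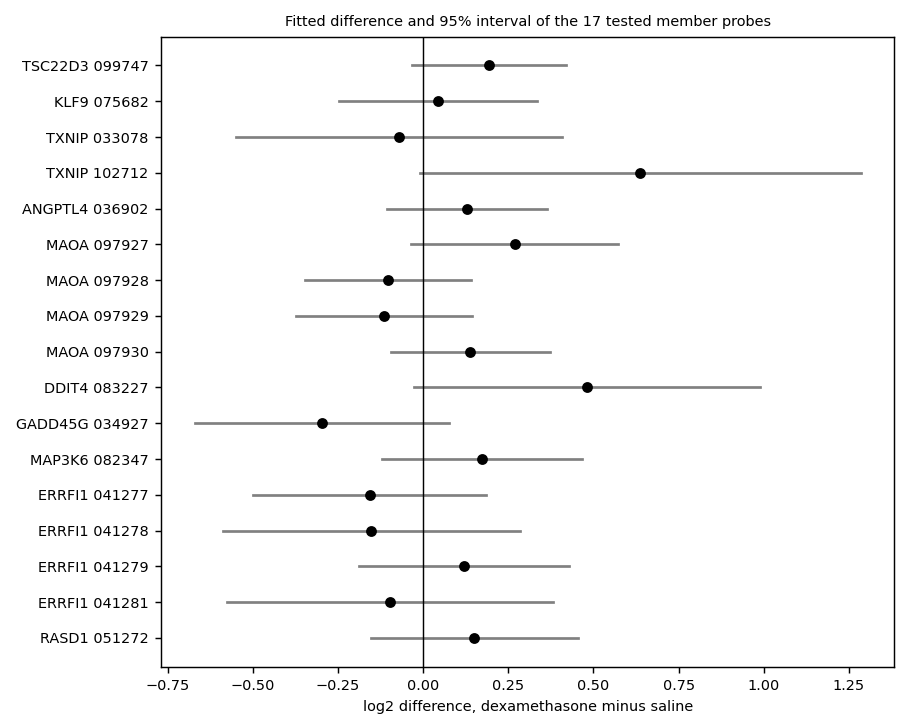
Points are the fitted log2 differences, dexamethasone minus saline, of the 17 tested member probes, and bars are 95% intervals from limma, with 4 samples a group (3 saline samples at MAOA A_04_P097928). Every interval includes 0, and the intervals of TXNIP A_04_P102712, DDIT4 and MAOA A_04_P097927 have the highest upper ends.

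Of the 17 member probes tested, 0 passed an adjusted p under 0.05 (limma, Benjamini-Hochberg), beside 0.0338% of all 20707 probes tested, and the members' adjusted p ran from 0.392 to 0.894. At an unadjusted p under 0.05 the members also numbered 0, beside 12.7% of all probes. A difference above 0 was found for 10 member probes and below 0 for 7, while 56.4% of all probes tested lay above 0. The median difference was 0.12 over the members and 0.03 over all probes tested. With the processed signals, 14 of 17 members lay above 0, and with 75th percentile scaling 13 of 17 did. The share of all probes above 0 was not counted under these settings, where the median over all probes was 0.06 and 0.02. Without the array of saline 3 and 4, 14 of 16 members lay above 0. The other alternatives that tested all 17 member probes gave 9 to 11.

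For part of the members the saline samples differed by array. For 13 of the 17 tested probes the samples of saline 3 and 4 averaged higher than those of saline 1 and 2, beside 47.7% of all probes tested. For 10 of the 17, both saline 3 and 4 lay above both saline 1 and 2, beside 30.5% of all probes. Of these 10 probes 4 are overlapping ERRFI1 probes, and none is a probe of TSC22D3, KLF9, ANGPTL4 or MAOA. Before normalisation, saline 3 had a lower signal over background than saline 1 at DDIT4 (5.64 against 6.59), MAP3K6 and both TXNIP probes. At ERRFI1 A_04_P041277, A_04_P041279 and A_04_P041281 it was also lower. It was higher at GADD45G (19.6 against 12.0), RASD1 and ERRFI1 A_04_P041278. The part of normalisation in this order was not tested. Outlier spots were most frequent in saline 3 and 4 (2486 and 3022, against 1121 and 932 in saline 1 and 2). The array means of GADD45G were 10.19 for saline 3 and 4 and 9.67 for saline 1 and 2, a gap of 0.52, wider than its difference between the groups. The mean gap between the arrays of a group was wider than the difference between groups for 13 of 17 member probes and for 68.9% of all probes tested.

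Leaving out the array of saline 1 and 2 brought 4 member probes past the adjusted threshold, all lower with dexamethasone. They were GADD45G (difference -0.56, SE 0.09, adjusted p = 0.021, limma) and the ERRFI1 probes A_04_P041277 (-0.39), A_04_P041278 (-0.42) and A_04_P041281 (-0.42). In that fit, which had a single saline array, 16.3% of all 19061 probes tested passed, and the fitted correlation within arrays was -0.30, against 0.23 with all samples. Leaving out the array of saline 3 and 4 instead gave 0 members past the threshold, GADD45G at -0.04 and the same 3 ERRFI1 probes at 0.08, 0.12 and 0.23.

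**Figure D4:**
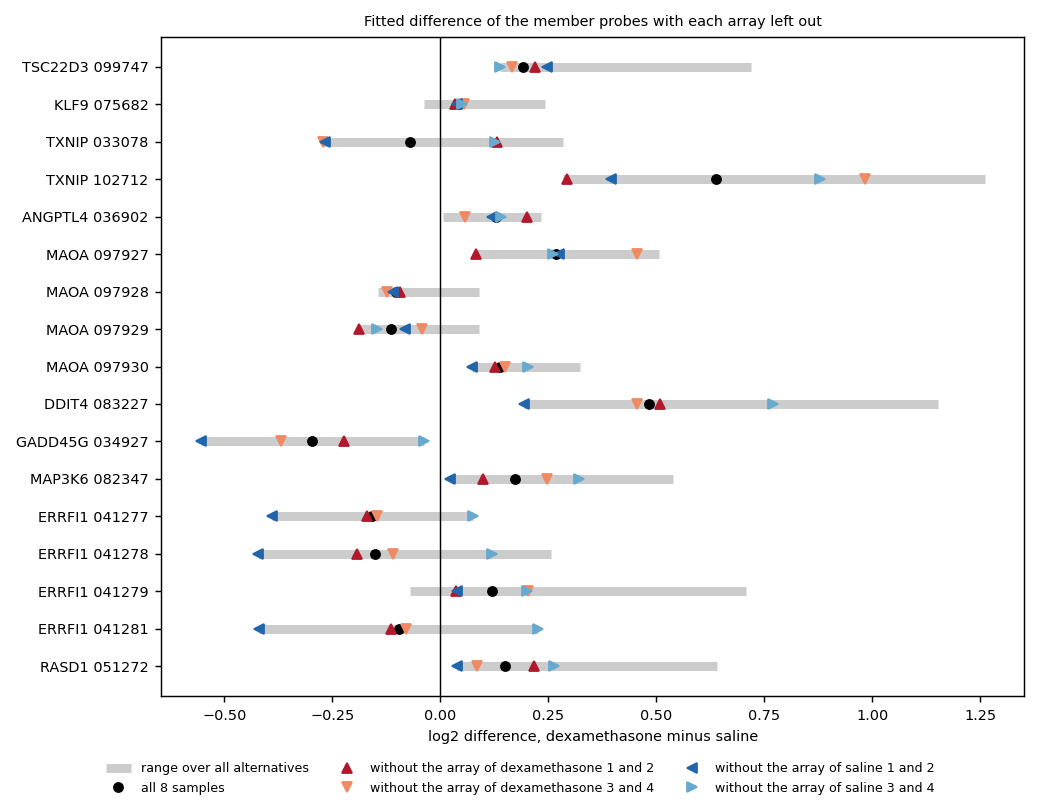
Black points are the fitted log2 differences with all 8 samples, triangles those with 1 array left out, and grey bars the range over all alternatives, for the 17 tested member probes. The 2 blue triangles lie furthest apart for DDIT4, GADD45G, TXNIP and 3 ERRFI1 probes, on opposite sides of 0 for these ERRFI1 probes and for TXNIP A_04_P033078, and the bars of TSC22D3, TXNIP A_04_P102712, DDIT4, RASD1, ANGPTL4, MAP3K6, MAOA A_04_P097927 and MAOA A_04_P097930 stay above 0.

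Other genes induced by glucocorticoids were listed beside the members, each by its brightest kept probe. Of 35 such genes 13 were tested, 7 lay above 0 and 6 below, with a median of 0.01, and 0 passed the adjusted threshold. The smallest p values belonged to LPIN1, a phosphatidate phosphatase (-0.32, SE 0.14), and ANXA1, an anti-inflammatory annexin (0.34, SE 0.15). The widely used steroid readout FKBP5 was well above background in 0 dexamethasone samples and 1 saline sample and was not tested. SGK1, another, was tested and differed by 0.01 (SE 0.12), while its other probes gave 0.06 to 0.22. Of the receptor and its cofactors, 5 of 8 genes were tested and 0 passed, with the mineralocorticoid receptor NR3C2 at 0.19 (SE 0.11), the chaperone partner FKBP4 at 0.14 (SE 0.12) and NR3C1, the receptor itself, at -0.10 (SE 0.12), whose other probes gave -0.36 to -0.13.

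Of 8 genes listed beside DDIT4 for mTOR signalling, 4 were tested. All 4 lay above 0, beside 56.4% of all probes tested, with a median of 0.34 and 0 past the adjusted threshold. They were RPS6KB1, the S6 kinase (0.59, SE 0.22), MTOR itself (0.39, SE 0.16), RHEB, the GTPase that activates it (0.24, SE 0.10), and DDIT4L, the paralogue of DDIT4 (0.29, SE 0.14). For RPS6KB1 the other probes gave 0.10 to 0.32. Of 6 genes of EGF receptor signalling, the pathway that ERRFI1 inhibits, 1 was tested, the ligand AREG, which did not pass and stood at -0.47 (SE 0.26), and EGFR, well above background in 2 dexamethasone samples and 0 saline samples at its brightest probe, was not tested. Of 7 genes of monoamine turnover 2 were tested and 0 passed. MAOB, the sister enzyme of MAOA, stood at 0.15 (SE 0.10) and SLC6A2, the noradrenaline transporter, at -0.20 (SE 0.12).

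Of 22 genes of the stress response 6 were tested and 5 lay above 0, beside 56.4% of all probes tested. Their median was 0.23 and 0 passed the adjusted threshold. HERPUD1, a membrane protein of the endoplasmic reticulum stress response, stood at 0.25 (SE 0.09), XBP1 at 0.25 (SE 0.16) and calreticulin (CALR) at 0.25 (SE 0.22). The other probes gave -0.03 to 0.29 for XBP1 and 0.32 to 0.53 for CALR. Of 28 genes of glucose, fat and redox metabolism 13 were tested, 8 lay above 0, the median was 0.11 and 0 passed. ACADL, an enzyme of fatty acid oxidation, stood at 0.22 (SE 0.09), LPL, the lipase that ANGPTL4 inhibits, at -0.61 (SE 0.26), and PDHA1, a subunit of pyruvate dehydrogenase, at -0.47 (SE 0.22).

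Among relatives of the members, 3 of 14 were tested and 0 passed the adjusted threshold. ARRDC3, of the same arrestin family as TXNIP, stood at -0.60 (SE 0.20), GADD45A at -0.24 (SE 0.35) and TSC22D2 at 1.35 (SE 0.58). The other probes of TSC22D2 gave 0.05 to 0.24, so its value rests on 1 probe. Of the genes of these lists, HERPUD1 and RHEB had all dexamethasone samples above all saline samples, as 6.55% of all probes tested had. LPIN1 and ARRDC3 had all dexamethasone samples below all saline samples, as 5.86% had. These 2 genes were near background, each well above it in 2 dexamethasone and 3 saline samples.

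The genes whose pattern over the 8 samples was most like that of a member, after the mean of each dye was taken out, were ranked by Pearson's r among 11995 to 11997 probes of named genes for 7 member probes with all 8 values well above background. The closest to TXNIP A_04_P102712 were SECISBP2, SMC2 and SLAIN1 (r = 0.981, 0.979 and 0.979, n = 8 samples). The closest to GADD45G were TOE1, NFKBIZ and SYCE1 (r = 0.992, 0.987 and 0.985), to MAP3K6 EFCAB11, TXNRD2 and CHST8 (r = 0.981, 0.981 and 0.974) and to ANGPTL4 POLR1C, TMEM14A and ETF1 (r = 0.976, 0.970 and 0.906). The closest were SVEP1, DENND4C and TATDN3 (r = 0.988, 0.983 and 0.983) for MAOA A_04_P097927, BORA, LAPTM5 and RPL37A (r = 0.967, 0.922 and 0.904) for A_04_P097929 and RPL10, CABLES1 and ETFRF1 (r = 0.959, 0.955 and 0.954) for A_04_P097930. None of the closest genes of any of the 7 probes was another member. These values were picked as the highest of many over 8 samples that share arrays, and are given as a description.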

How the data were processed

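The deposited scanner files hold spot intensities, local background intensities and flags of 4 arrays of design 020908, written by Agilent Feature Extraction. Its version is 11.0.1.1 per the file headers, while the submitters' processing notes name 10.7.3.1. The deposited series table holds a signal that equals, within 0.1%, the median minus the background median intensity divided by a constant per sample, so that each column's median is 1. Each sample was read from its own dye's channel.

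Mean intensities were corrected with normexp (offset 50) on the background median, normalised by loess within arrays and Aquantile between arrays, and taken as 1 log2 value per sample. Outlier spots were dropped (197 to 509 per dexamethasone sample, 932 to 3022 per saline sample). No spot was saturated. limma 3.58.1 in R 4.3.3 compared the groups with a dye term and a random array block (correlation 0.23), 2-sided, with Benjamini-Hochberg adjustment over 20707 probes. The median SE was 0.13, and the number of arrays limits the precision. No term for slide could be fitted. Replicate numbers were shared by the groups, but samples of the same number did not deviate together (correlations of -0.15 to 0.11).

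TSC22D3 was matched through its transcript accession and the other members through gene IDs. The 10 members and all lists were chosen with earlier results of these data known. Named genes were all members, up to 3 genes per list by smallest p and the 3 genes most like each bright member probe; cell type markers, FKBP5, SGK1, EGFR and DDIT4L were named after their values were seen. A gene of these lists is not reported here. The fit was run on simulated data that held array effects but no effect of slide or scan day. It called 74 of 100 probes changed by 1 on the log2 scale, 91 of 100 changed by 2, and 3 unchanged probes. Smaller changes were not simulated. Alternatives covered background correction, normalisation, filters, probe rule, blocks, dye, prior, threshold, the deposited table, and each sample or array left out.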

Additional observations from a re-analysis of the deposited data

Results flagged for a closer look

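In 2 of the 35 groups of 4 values examined, 1 sample stood far from the other 3 of its group, with a gap to its neighbour that, as a share of the group's range, was above Dixon's 95% critical value. Chance flags about 1 in 20 groups. At the upstream TXNIP probe A_04_P033078, dexamethasone 1 had a log2 intensity of 8.14, with the next at 8.83, a gap of 0.838 of the range. Without dexamethasone 1 the difference of this probe was 0.10 in place of -0.07. At MAOA A_04_P097930, saline 1 had 9.30, with the next at 9.56, a gap of 0.884 of the range. Without saline 1 the difference of this probe was 0.08 in place of 0.14.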

How the results depend on the processing

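Over 28 alternatives the member probes gave 451 differences, of which 428 kept their sign and 23 turned it. The median over the members stayed above 0, from 0.04 to 0.24 (0.04 without the array of saline 1 and 2). The count of members past the threshold was 0 in 27 alternatives and 4 without the array of saline 1 and 2. With the processed signals the sign turned for ERRFI1 A_04_P041277 (0.028), A_04_P041278 (0.26) and A_04_P041281 (0.15) and for MAOA A_04_P097928 (0.0014). With 75th percentile scaling it turned for A_04_P041278 (0.095), A_04_P041281 (0.017) and A_04_P097928 (0.018), and with the deposited table, where the median of all probes moved to 0.16, for MAOA A_04_P097929 (0.0083). Without the array of saline 3 and 4 it turned for TXNIP A_04_P033078 (0.13) and 3 ERRFI1 probes (0.076, 0.12 and 0.23), and without the array of dexamethasone 1 and 2 for A_04_P033078 (0.13). Averaging the probes of a gene, an alternative chosen after seeing the data, gave TXNIP 0.28, ERRFI1 -0.072 and MAOA 0.089, which turned 4 probes. With single samples left out, TXNIP A_04_P033078 ran from -0.21 to 0.098, KLF9 from -0.038 to 0.13 and A_04_P041281 from -0.28 to 0.083. The cause of these turns was not tested.

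Members with no overlap numbered 0 with quantile normalisation, the deposited table and probes well above background in all samples. The shares of all probes tested were 13.0%, 7.84% and 12.3% there. Without the array of saline 1 and 2 the members numbered 7 of 17 (44.2% of all probes), and without that of saline 3 and 4, 4 of 16 (22.7%). Without the array of dexamethasone 1 and 2 they numbered 3 of 17 (24.8%), and without that of dexamethasone 3 and 4, 5 of 17 (27.2%). With single samples left out they numbered 1 to 2, beside 13.8% to 22.4% of all probes. Over all probes, 7 passed the threshold, against 28 with no array block and 19 with no dye term. The count was 15 and 14 with the processed signals and 12 at an adjusted p of 0.1. It was 11 of 11270 gene names with probes averaged, 3 with quantile normalisation and 2 without the filter. With single samples left out it was 0 to 11. It was 162 without the array of saline 3 and 4 and 0 without either dexamethasone array. The replicate block gave 0 (2997 at an unadjusted p under 0.05) and 0 members, with a member median of 0.12. Slide as a block could not be run, since 0 slides held both groups. Near background the members' signals limit what these arrays can show, above all in Cy3 saline samples.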
